A study of Mus musculus with 2 samples.

Results

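Promoters of DNA repair genes were followed in hearts from mice aged 15 days with ATAC-seq, an assay whose transposase inserts adapters into open DNA so that reads collect where chromatin is accessible. There was 1 library from Ythdc1 CKO mice, in which Ythdc1 is deleted in the heart, and 1 library from Ythdc1flox/flox mice, which carry the floxed gene without that deletion. The Ythdc1 protein binds N6-methyladenosine in nuclear RNA. The sources used here do not give the driver of the deletion, the number of animals behind each library or any pooling. Both groups were kept on normal chow.

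A gene counted as a DNA repair gene when a peak within 1 kb of its transcription start carried the exact gene ontology (GO) term DNA repair in the deposited annotation. The gene was then represented by the peak with the largest summed count over both libraries. This gave 270 genes of the 14854 that had a promoter peak. The members were chosen by annotation and signal, but the gene group was singled out with earlier results of these data known, so its ratios are a description without a test. Each genotype has 1 library, so a difference cannot be set against the spread between animals, and every interval below covers counting error only.

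Cells repair DNA by several routes. Glycosylases cut out single damaged bases, nucleotide excision removes bulky adducts, mismatch repair corrects copying errors, and broken ends are joined directly or copied from a sister strand by homologous recombination. Many genes of the last route, and those that act at replication forks, are known to be most active in dividing cells, while base excision and end joining serve resting cells as well. Cardiomyocytes of the mouse stop dividing soon after birth, so a heart at this age holds many resting muscle nuclei beside dividing cells of other types.

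The repair promoters were open in both libraries and differed little between them. Of the 270, 265 (98.1%) were called as peaks in both libraries, against 84.7% of the other promoter genes. The median repair promoter held 264 counts in the Ythdc1 CKO library and 268 in the Ythdc1flox/flox library, while the other promoters held 172 and 182. Peaks of repair genes were also wider, with a median of 796.5 bp against 670 bp, and 97.8% of them covered the annotated start, against 81.3% of the others. These comparisons were not matched on signal, and the high calling and wide peaks were not particular to repair genes. Other promoter genes with the GO term cell cycle were called in both libraries in 97.5%, with a median width of 805.5 bp. For the term cellular response to DNA damage stimulus the values were 98.5% and 792 bp.

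Ratios were taken from counts scaled to the library's total in peaks (CPM), from totals of 6466537 counts in the Ythdc1 CKO library and 6755590 in the Ythdc1flox/flox library, with 0.5 added to each count. The median log2 ratio of the repair promoters was -0.07, with quartiles of -0.23 and 0.08. No repair promoter was at least 2-fold higher or lower, 0 of 270, against 4.32% of all promoter genes and 0.832% of other promoter genes weighted to the same signal. The most extreme were Eya2 at -0.85 and Nthl1 at 0.75. The peaks of Eya2, Msh4, Usp51, Fancm and Xrcc3, all below 0, were called in the Ythdc1flox/flox library alone. Such calling favoured a high count in that library. The SD over members was 0.24, and counting error alone accounted for an SD of 0.14.

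Repair promoters leaned to the lower side. Of the 270, 169 (62.6%) had a ratio below 0 on the log2 scale and 101 above, against 53.2% below among all promoter genes. The counting interval of the ratio lay wholly below 1 for 53 members (19.6%), against 16.9% of all promoter genes and 16.5% of the others at the same signal. It lay wholly above 1 for 15 members (5.56%), against 14.1% of all promoter genes, and the share of the others at the same signal was also 14.1%. The 2 shares differed from the background by unequal amounts, since the upper tail was thinner among repair promoters and the lower tail was about as full as elsewhere.

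**Figure D1:**
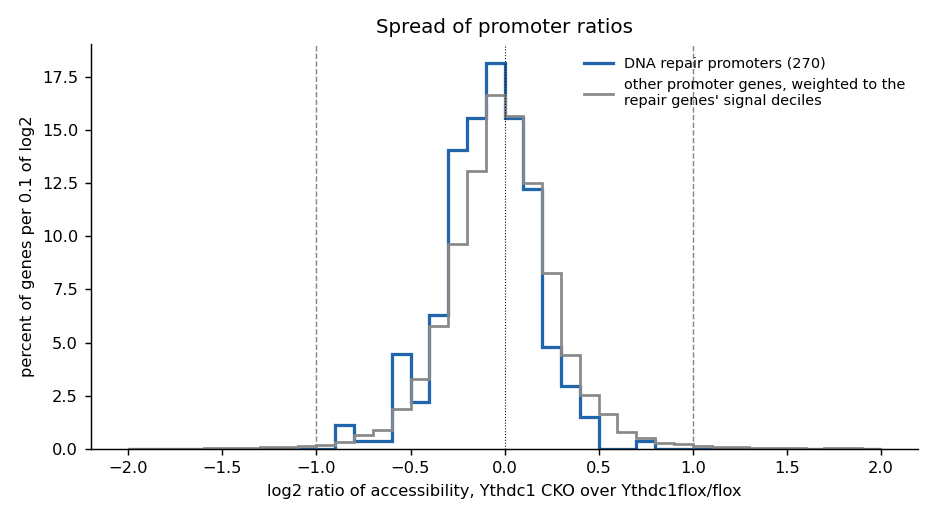
Percent of genes in each 0.1-wide class of the log2 ratio of Ythdc1 CKO over Ythdc1flox/flox, for the 270 DNA repair promoters and for the other promoter genes weighted to the same signal deciles; dashed lines mark 2-fold. The repair promoters all lie between -0.85 and 0.75, with a median of -0.07, and few of them lie above 0.5.

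Signal was held equal by sorting all promoter genes into 10 deciles of summed count and weighting the other genes by the number of repair genes in each. The repair promoters then had a median of -0.07 and the others a median of -0.01, a difference of -0.06. The quartiles of the weighted others were -0.18 and 0.15, so the difference was small beside the spread of single promoters. Of the 7 deciles that held at least 20 repair genes, the repair median was lower in 6, and the exception was decile 7, with 0.04 for repair genes and -0.01 for the others. Decile 3, with 18 repair genes, was also higher, at 0.03 against -0.06 for the others. Deciles 1 and 2, with 1 and 4 repair genes, were lower. The widest gap among the 7 larger deciles was in decile 4, where 23 repair promoters had a median of -0.18 and the others -0.03. In the top decile, 45 repair promoters had a median of -0.02 and the others -0.0004.

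**Figure D2:**
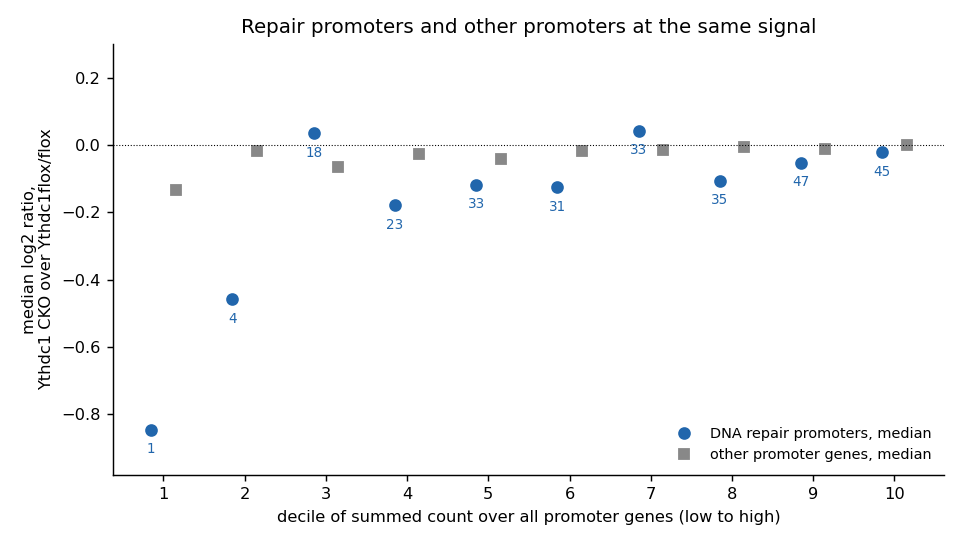
Median log2 ratio of Ythdc1 CKO over Ythdc1flox/flox in each decile of summed count, for DNA repair promoters (circles, number of genes below each) and other promoter genes (squares). The lowest circles, in deciles 1 and 2, stand for 1 and 4 genes, and in deciles 3 to 10 the repair medians lie between -0.18 and 0.04. In deciles 3 and 7 the circle lies above the square.

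The zero point of these ratios depends on the scaling. On the authors' RPM scale, which divides by larger library totals, the median of all promoter genes moved by -0.17, the repair median was -0.25, and 233 repair promoters lay below 0 and 37 above. With TMM scaling the repair median was -0.023, with 142 below 0 and 128 above. The difference from other promoter genes of the same signal was -0.06 under both. The median of all other promoter genes on the scale used below was -0.02.

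Heart identity and cell makeup were looked at through marker promoters. Of 13 cardiomyocyte markers 12 had a promoter peak, Tbx5 being the exception, and of 7 liver, neuron and gut markers 2 had one, with Alb, Apoa1, Ttr, Neurod1 and Cdx2 lacking it. The cardiomyocyte promoters had a median log2 ratio of -0.23, ranging from -0.80 to 0.23, and their summed level was 477 CPM in the Ythdc1 CKO library and 534 in the Ythdc1flox/flox library. The 12 endothelial promoters had a median of 0.20, with sums of 281 and 248. The 7 fibroblast promoters with a peak, of 10 listed, had a median of -0.14, with sums of 113 and 94.4. The 7 mural promoters, of 9 listed, had a median of 0.31, with sums of 117 and 99.6. Of the leukocyte markers, 1 of 9 myeloid genes (Spi1, with sums of 4.79 and 4.88 CPM) and 2 of 7 lymphoid genes (Cd3d and Lck, with sums of 11.9 and 16.1) had a promoter peak. In a whole tissue, fewer nuclei of a type and less accessibility per nucleus cannot be told apart.

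Cell cycle genes outside the repair group were set beside the members because the 2 functions overlap. Of 30 listed genes, 27 had a promoter peak, and their median log2 ratio was -0.22, with 23 below 0 and 4 above. Their summed level was 909 CPM in the Ythdc1 CKO library and 1044 in the Ythdc1flox/flox library. The counting interval lay wholly below 1 for 12 of the 27 and wholly above 1 for 0, against 16.9% and 14.1% of all promoter genes. The 446 other promoter genes with the GO term cell cycle had a median of -0.05, and shares of 18.8% and 10.8%. The listed genes thus lay lower than that wider set. The part of cell makeup or division in the repair ratios was not tested.

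The Ythdc1 promoter peak itself, chr5:86803786-86804858 (GRCm38), held 314 counts in the Ythdc1 CKO library and 358 in the Ythdc1flox/flox library, a ratio of 0.916 with a 95% interval of 0.785 to 1.07. The deleted segment is not stated and may lie elsewhere in the gene, so this value checks no genotype.

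The upstream sequences of some repair genes are given to show E2F and CCAAT letters, a pair of motifs picked for display after the values were seen. RefSeq promoter windows (GRCm38.p6) of 300 bases, 250 of them before the start, were found for 219 repair genes (81.1%) and for 8936 other promoter genes with GO terms (73.7%). Each was searched on both strands for exact letters. The E2F letters were TTTCCCGC, TTTGCCGC, TTTCGCGC or TTTGGCGC, which are bound by the E2F factors of the cell cycle. The NF-Y letters were CCAAT, the box bound by NF-Y. An E2F match was present in 10.05% of repair windows and 4.14% of the others, and in 2.26% of all windows in the RefSeq table. A CCAAT match was present in 47.5% and 37.7%, and in 37.4% of all windows.

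The stretches printed here are the 250 bases before the annotated start, 5′ to 3′ on the gene's strand, with E2F and CCAAT letters or their reverse complements in capitals. Swsap1 is the lowest strongly covered repair promoter (chr9:21955503-21955752, plus strand) and holds 3 CCAAT matches. Uhrf1 (chr17:56304063-56304312, plus strand), Cdk2 (chr10:128705052-128705301, minus strand), Bard1 (chr1:71102973-71103222, minus strand) and Fancg (chr4:43010302-43010551, minus strand) hold an E2F match and had ratios below 0. Alkbh2 (chr5:114128219-114128468, minus strand) and Cyren (chr6:34878066-34878315, minus strand) are the highest strongly covered repair promoters and hold neither. Other far promoters, not printed, went against that pairing. The windows of Otub1 (-0.56) and Bach1 (-0.36) held neither motif, that of Nthl1 (0.75) held both and that of Mms19 (0.30) held CCAAT.
Swsap1: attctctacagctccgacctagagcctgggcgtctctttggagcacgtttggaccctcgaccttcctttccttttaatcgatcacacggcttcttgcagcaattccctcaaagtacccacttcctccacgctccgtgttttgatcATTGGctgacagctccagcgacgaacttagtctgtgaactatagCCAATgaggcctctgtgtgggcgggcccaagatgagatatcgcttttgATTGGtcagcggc
Uhrf1: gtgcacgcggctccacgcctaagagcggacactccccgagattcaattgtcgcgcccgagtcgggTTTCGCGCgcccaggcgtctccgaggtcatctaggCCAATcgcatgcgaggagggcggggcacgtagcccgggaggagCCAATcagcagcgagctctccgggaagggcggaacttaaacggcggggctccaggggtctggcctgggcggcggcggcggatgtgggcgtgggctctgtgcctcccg
Cdk2: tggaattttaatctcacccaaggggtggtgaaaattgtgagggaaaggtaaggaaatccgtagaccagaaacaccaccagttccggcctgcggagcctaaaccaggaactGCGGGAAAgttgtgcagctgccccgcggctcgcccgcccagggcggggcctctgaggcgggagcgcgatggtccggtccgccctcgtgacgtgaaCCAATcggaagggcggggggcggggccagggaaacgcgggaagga
Bard1: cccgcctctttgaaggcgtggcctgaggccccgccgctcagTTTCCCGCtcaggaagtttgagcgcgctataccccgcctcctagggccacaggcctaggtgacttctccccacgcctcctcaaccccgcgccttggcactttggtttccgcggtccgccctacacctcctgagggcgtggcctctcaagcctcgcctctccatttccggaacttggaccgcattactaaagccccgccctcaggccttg
Fancg: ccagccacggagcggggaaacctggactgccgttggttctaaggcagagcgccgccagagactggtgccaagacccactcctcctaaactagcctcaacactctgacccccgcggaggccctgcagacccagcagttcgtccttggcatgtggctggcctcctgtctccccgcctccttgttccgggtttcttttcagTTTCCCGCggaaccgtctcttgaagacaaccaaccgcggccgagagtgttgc
Alkbh2: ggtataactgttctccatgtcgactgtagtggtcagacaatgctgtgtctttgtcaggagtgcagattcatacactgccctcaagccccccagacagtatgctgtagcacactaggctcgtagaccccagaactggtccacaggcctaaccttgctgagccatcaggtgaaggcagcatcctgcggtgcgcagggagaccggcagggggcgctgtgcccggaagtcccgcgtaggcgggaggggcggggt
Cyren: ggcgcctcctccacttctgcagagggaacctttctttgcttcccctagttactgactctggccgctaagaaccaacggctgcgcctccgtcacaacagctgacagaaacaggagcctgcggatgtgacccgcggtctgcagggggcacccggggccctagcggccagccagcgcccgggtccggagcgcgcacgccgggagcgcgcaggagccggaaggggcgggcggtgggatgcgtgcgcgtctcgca

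The repair genes with an E2F match were mostly lower in the Ythdc1 CKO library. Of these 22 genes, 18 lay below 0, with a median log2 ratio of -0.13, against -0.06 for the repair genes without one. The exceptions were Pold1, Emsy, Ssrp1 and Nthl1, and for Nthl1 the window's start lay outside the peak. Other promoter genes with an E2F match had a median of -0.07, with 228 of 370 below 0, and those without one had a median of -0.02. For CCAAT, the 104 repair genes with a match had a median of -0.11 and those without one -0.03, and the corresponding medians of the other genes were -0.05 and -0.01. The ETS letters CCGGAAGT went the other way among repair genes, with a median of 0.05 for the 25 genes with a match and -0.08 for the rest. The ETS letters were present in 11.4% of repair windows, 8.06% of the others and 3.89% of all windows. The other letters searched were GCATGCGC for NRF1 (9.13% of repair windows, 5.51% of the others and 2.71% of all), TGACGTCA for CRE (4.11%, 3.38% and 1.79%), GGGCGG for SP1 (70.3%, 68.4% and 35.7%) and TTTGAA for CHR (11.4%, 10.7% and 17.9%). For YY1 (ATGGCGGC) the shares were 3.20%, 5.09% and 2.24%, for ZBTB33 (TCGCGAGA) 4.57%, 2.17% and 0.995%, and for the TATA box (TATAAA) 3.65%, 6.56% and 13.6%. No letters of one motif contain those of another. GC content did not set the repair windows apart, with a median of 61.7% against 62.0%, while the ratio of observed to expected CpG was 0.86 against 0.78. Matches share windows with each other and with high signal, and a match is not a measured binding site.

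The genes were sorted into 12 repair lists that held 157 of the 270. A further 60 fell into 4 groups drawn up after their values were seen, and 53 were in none. Medians of the repair lists ran from -0.19 for mismatch repair to 0.18 for direct reversal. The medians of the base excision, chromatin remodelling and RNA processing groups were within 0.04 of 0 and changed sign under TMM scaling, those of nucleotide excision and the Eya phosphatases changed sign on the RPM scale, and the sign of the other named lists stayed the same under 4 other scalings. Splits narrowed under TMM, to 7 below 0 and 6 above for the Fanconi anaemia pathway, 15 and 11 for homologous recombination, 3 and 2 for mismatch repair, 6 and 6 for replication and 14 and 12 for ubiquitin and proteasome genes.

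**Figure D3:**
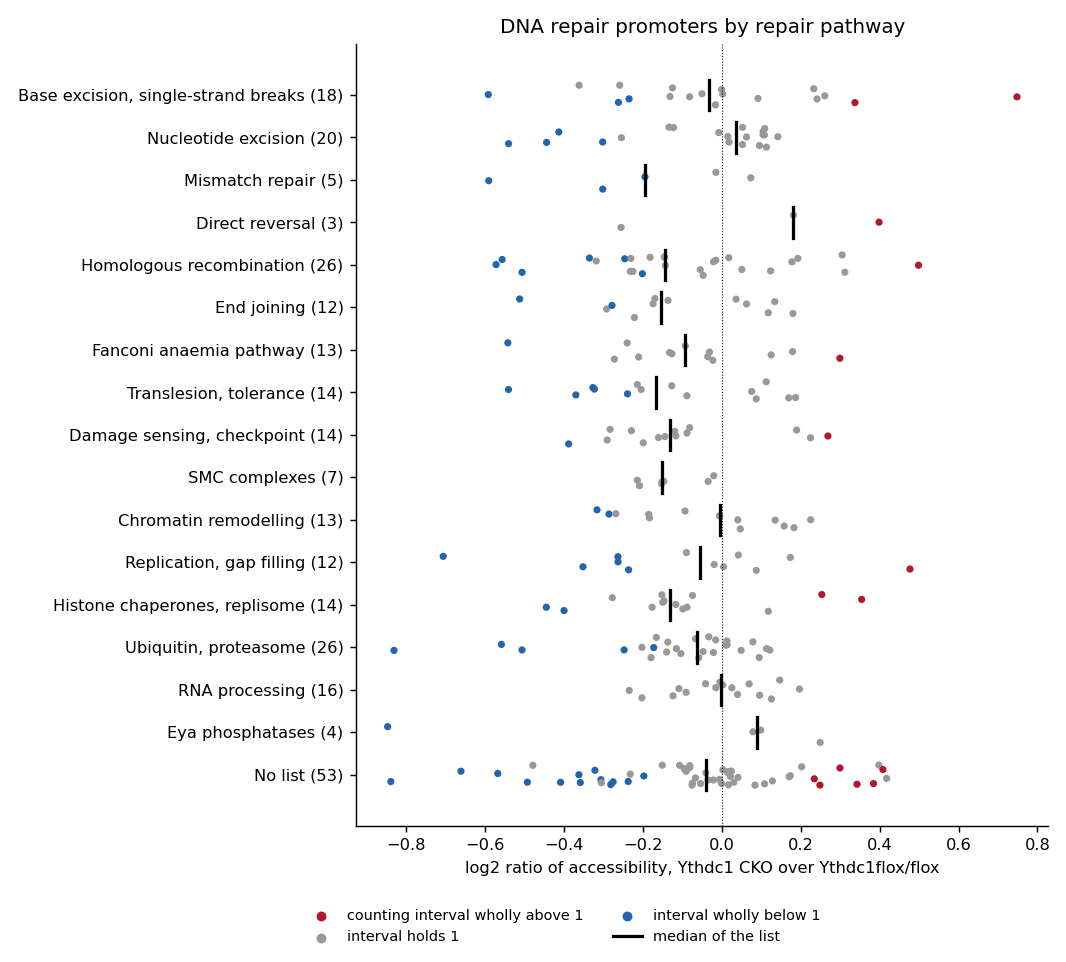
Log2 ratio of Ythdc1 CKO over Ythdc1flox/flox at each of the 270 DNA repair promoters, in rows by pathway with the number of genes in brackets; colours show whether the counting interval of the ratio lies wholly above 1, holds 1 or lies wholly below 1. Mismatch repair and the SMC complexes lie mostly left of 0, with medians of -0.19 and -0.15, while nucleotide excision has 12 of 20 genes to the right.

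Base excision repair and single-strand break repair had no common direction. Of 18 members 11 lay below 0 and 7 above, with a median of -0.03. Ogg1, the glycosylase for oxidised guanine, held 600 counts in the Ythdc1 CKO library and 627 in the Ythdc1flox/flox library, and the interval of its ratio ran from 0.892 to 1.12. Ung, which removes uracil, held 267 and 282 counts. Xrcc1, the scaffold for ligation of single-strand breaks, held 265 counts in the Ythdc1 CKO library and 332 in the Ythdc1flox/flox library, a ratio of 0.834 (0.707 to 0.983). Mbd4, a thymine glycosylase that reads methylated CpG, stood at 375 and 461 counts.

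The glycosylases of oxidised pyrimidines lay far apart. These genes were chosen after their values were seen. Nthl1 held 145 counts in the Ythdc1 CKO library and 90 in the Ythdc1flox/flox library, a ratio of 1.68 (1.29 to 2.21), the highest of the 270. Neil3, another glycosylase of this kind that is known from dividing cells, held 118 and 186, a ratio of 0.663 (0.522 to 0.839). Neil1 and Neil2 had log2 ratios of 0.23 and 0.26. Tdg, the thymine glycosylase of active demethylation, held 288 counts against 238. Parp1, which senses single-strand breaks, did not carry the term, and its promoter held 250 counts in the Ythdc1 CKO library and 288 in the Ythdc1flox/flox library.

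Nucleotide excision was the largest repair list with a median above 0, at 0.04 and with 12 of 20 members above 0, although on the authors' RPM scale its median was -0.14. Over the 29 members with the GO term nucleotide-excision repair, the median was -0.02, with 17 below 0 and 12 above. Xpa, Xpc and Ercc1, named by their role, had intervals that held 1. Xpc, the damage sensor, held 439 counts in the Ythdc1 CKO library and 461 in the Ythdc1flox/flox library. Xpa, which verifies the lesion, held 209 and 203. Ercc1, part of the 5′ nuclease, held 244 and 237. Rad23b, the partner of Xpc, had a log2 ratio of 0.11 and Ddb1, the adaptor of ultraviolet damage binding, one of 0.10.

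The 4 nucleotide excision promoters with intervals below 1 were Cetn2, Gtf2h4, Ercc5 and Ercc2, chosen after their values were seen. They made up 20% of the list, near the 16.9% of all promoter genes. The interval lay wholly above 1 for 0 of the list, against 14.1% of all promoter genes. Ercc5, the 3′ incision nuclease of this route, held 189 counts in the Ythdc1 CKO library and 263 in the Ythdc1flox/flox library, a ratio of 0.751 (0.619 to 0.908). Cetn2, a centrin that binds Xpc, held 119 counts in the Ythdc1 CKO library and 181 in the Ythdc1flox/flox library, a ratio of 0.687 (0.540 to 0.870). Its peak also covers the start of Nsdhl on the opposite strand. Gtf2h4 and Ercc2 are subunits of the repair and transcription factor TFIIH, with log2 ratios of -0.44 and -0.30. Its subunit Gtf2h3 had -0.25, while Ercc3, Cdk7 and Gtf2h2 had 0.11, 0.11 and 0.06. Gtf2h1, Ccnh and Mnat1, without the term, had 0.02, -0.02 and 0.05. These subunits therefore lay on both sides of 0, but of those named only Gtf2h4 and Ercc2 had intervals that excluded 1.

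Mismatch repair had the lowest median of the repair lists, -0.19 over 5 members, of which 4 lay below 0. Msh3, which recognises larger loops, held 660 counts in the Ythdc1 CKO library and 789 in the Ythdc1flox/flox library, a ratio of 0.874 (0.787 to 0.970). Msh6, which recognises single mismatches, held 325 and 343. Exo1, the nuclease that removes the faulty strand, was chosen after its values were seen and held 113 and 178, a ratio of 0.663 (0.519 to 0.844). Over the 14 members with the GO term mismatch repair, a wider set, 11 lay below 0.

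Direct reversal held 3 genes. Alkbh2, a demethylase of alkylated DNA bases, held 303 counts in the Ythdc1 CKO library and 240 in the Ythdc1flox/flox library, a ratio of 1.32 (1.11 to 1.57). Mgmt, which takes the methyl group from guanine, held 253 and 233. Alkbh3, a second demethylase of this family, held 182 and 227, a ratio of 0.838 (0.685 to 1.02).

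Homologous recombination was the longest list, with 26 members, 18 below 0 and 8 above, and a median of -0.14. The 49 members with the GO term for this route had a median of -0.05, with 32 below 0 and 17 above. Brca2, a mediator of strand exchange, held 94 counts in the Ythdc1 CKO library and 102 in the Ythdc1flox/flox library. Bard1, the partner of Brca1, held 308 and 406, a ratio of 0.793 (0.681 to 0.921). Zswim7, part of the Shu complex, held 314 and 389. Its partner Swsap1, in no list, was the lowest of the strongly covered members, with 235 and 364 counts and a ratio of 0.674 (0.570 to 0.797).

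Other low members of this list, chosen after their values were seen, were Rmi2 of the Blm dissolvase complex at -0.57 and Xrcc3, which acts in strand exchange, at -0.51. The Xrcc3 peak was called in the Ythdc1flox/flox library alone. Xrcc2, a relative of Xrcc3, had 0.02. The nuclease complex that opens broken ends was split too, with Mre11a at -0.14, Nbn at 0.12 and Rad50 at 0.18. The interval of each of these 3 ratios held 1. Rad52, an annealing factor, was the highest of the list, with 176 counts in the Ythdc1 CKO library and 130 in the Ythdc1flox/flox library, a ratio of 1.41 (1.12 to 1.79).

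The Swsap1 and Otub1 peaks show the size of the largest differences at well covered repair promoters. Otub1, a deubiquitinase that limits ubiquitin signals at breaks, held 269 counts in the Ythdc1 CKO library and 414 in the Ythdc1flox/flox library, a ratio of 0.679 (0.580 to 0.793). Next by the same rule were Abl1, a kinase activated by damage, at -0.49, then Rdm1, a protein with a Rad52 motif, at -0.41, and Bach1 at -0.36. At the high end stood Cyren, an inhibitor of end joining in dividing cells, with 394 and 310 counts and a ratio of 1.33 (1.14 to 1.55). Hsf1, the heat shock factor, followed Alkbh2 at 0.38, and Polg2, an accessory subunit of the mitochondrial polymerase, stood at 0.35. Mms19, which helps place iron-sulphur clusters in repair enzymes, had 892 and 757 counts and a log2 ratio of 0.30. All 10 of these peaks were called in both libraries.

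**Figure D4:**
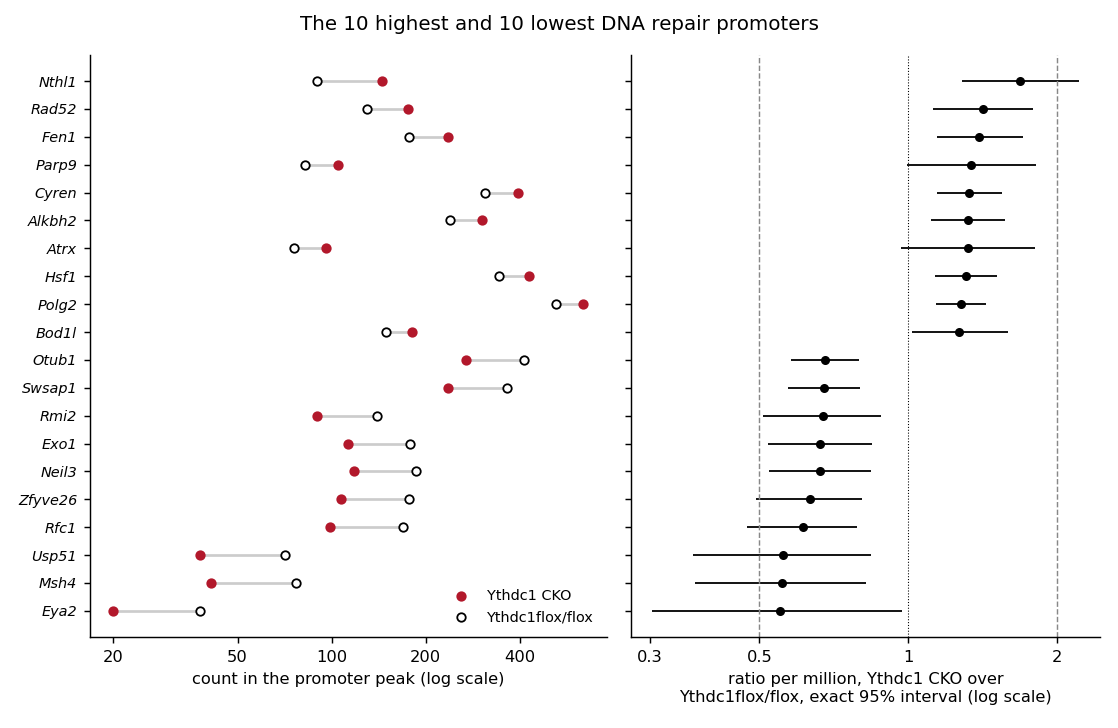
Counts in the promoter peak of each library (left, log scale) and the CPM ratio of Ythdc1 CKO over Ythdc1flox/flox with its exact 95% counting interval (right, log scale; dashed lines at 2-fold), for the 10 highest and 10 lowest DNA repair promoters. No point passes 2-fold, and the lowest, Eya2, Msh4 and Usp51, have the fewest counts and were called in the Ythdc1flox/flox library alone.

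End joining had 7 of 12 members below 0 and a median of -0.15. Its sign depended on the choice of genes. The 18 members with the GO term for nonhomologous end joining had a median of 0.05, with 8 below 0 and 10 above. Prkdc, the kinase of broken ends, held 356 counts in the Ythdc1 CKO library and 451 in the Ythdc1flox/flox library, a ratio of 0.825 with an interval wholly below 1. Xrcc5, a subunit of the Ku clamp, held 96 and 117. Lig4, the ligase of this route, held 393 and 374. Trp53bp1, which protects ends from resection, had 118 and 176 counts and a ratio of 0.700 (0.550 to 0.889). Mad2l2, of the shieldin complex that acts with it, had a log2 ratio of -0.17.

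The Fanconi anaemia pathway, which unhooks crosslinked strands, had 10 of 13 members below 0, with a median of -0.09. Its strongest promoter, Faap20, a factor of the core complex, was one of the 3 above 0, with 542 counts in the Ythdc1 CKO library and 460 in the Ythdc1flox/flox library, a ratio of 1.23 (1.09 to 1.40). Dclre1b, a nuclease, stood at 0.18. Over the list, the interval lay wholly below 1 for 1 of the 13 and wholly above 1 for 1, against 16.9% and 14.1% of all promoter genes. The lowest was Fancm, a translocase that recognises stalled forks, chosen after its values were seen. It held 84 and 128 counts, and its peak was called in the Ythdc1flox/flox library alone.

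Translesion synthesis and damage tolerance had a median of -0.17, with 9 of 14 members below 0. Its intervals lay wholly below 1 in 5 of the 14 and wholly above 1 in 0, against 16.9% and 14.1% of all promoter genes. Zranb3, a fork remodeller, held 458 counts in the Ythdc1 CKO library and 600 in the Ythdc1flox/flox library, a ratio of 0.797 (0.705 to 0.902). Shprh, a ubiquitin ligase of the clamp, held 388 and 507. The others, chosen after their values were seen, were Rad18, the ubiquitin ligase that starts this route, at -0.54, the polymerase Poli at -0.37 and Rev3l, the catalytic subunit of polymerase zeta, at -0.24. Polk and the ubiquitin conjugating enzymes Ube2n, Ube2a and Ube2b had ratios above 0.

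Damage sensing and checkpoint signalling had 11 of 14 members below 0, with a median of -0.13. Rad17, which loads the checkpoint clamp, was an exception, with 375 counts in the Ythdc1 CKO library and 325 in the Ythdc1flox/flox library, a ratio of 1.21 (1.04 to 1.40). Babam1, of the Brca1-A complex, held 256 and 307. Over the list, the interval lay wholly below 1 for 1 of the 14 and wholly above 1 for 1, against 16.9% and 14.1% of all promoter genes. Of the apical kinases, Atr did not carry the term, and its promoter held 158 and 208 counts, a ratio of 0.794 (0.641 to 0.981). Trp53, also without the term, held 161 and 133.

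The SMC complexes, which tether and reshape chromosomes, had all 7 members below 0, with a median of -0.15. None of the 7 intervals excluded 1. Smc3, of cohesin, held 410 counts in the Ythdc1 CKO library and 476 in the Ythdc1flox/flox library. Smc6 held 515 and 551, and its peak also covers the start of Gen1, a resolvase. Under TMM scaling 5 of the 7 lay below 0.

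Replication and gap-filling genes had both a low and a high end, with a median of -0.05 and 7 of 12 below 0. Pcna, the sliding clamp, held 347 counts in the Ythdc1 CKO library and 435 in the Ythdc1flox/flox library, a ratio of 0.833 (0.722 to 0.962). Lig1, the ligase of the lagging strand, held 285 and 380. Rpa3, the small subunit of the single-strand binding complex, held 268 and 336. The interval lay wholly below 1 for 5 of the 12, against 16.9% of all promoter genes, the other ones being Rpa1 at -0.24 and Rfc1, the clamp loader's large subunit, at -0.71. Fen1, the flap nuclease, stood opposite, with 236 and 177 counts and a ratio of 1.39 (1.14 to 1.70). Its peak also covers the start of Tmem258 on the other strand. Rfc1 and Fen1 were chosen after their values were seen.

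Chromatin remodelling and acetylation factors were centred near 0, with a median of -0.01 and 7 of 13 below. Mcrs1, of the INO80 complex, held 435 counts in the Ythdc1 CKO library and 554 in the Ythdc1flox/flox library, a ratio of 0.820 (0.722 to 0.932). Morf4l2 stood at -0.18. The ATPase Ino80 itself had 594 and 556 counts, and the 16 RNA processing genes had 8 below 0 and 8 above.

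The groups drawn up after their values were seen are given as a description only. Histone chaperones and replisome factors had 11 of 14 below 0 and a median of -0.13, and ubiquitin and proteasome genes 18 of 26 and -0.06. The strongest repair promoters were among these groups. Ube2d3, a ubiquitin conjugating enzyme, held 920 counts in the Ythdc1 CKO library and 1083 in the Ythdc1flox/flox library, a ratio of 0.887 (0.812 to 0.970). Cul4a, the scaffold of a ubiquitin ligase that acts on chromatin, held 999 and 959, and Smg1, a kinase of RNA surveillance, 934 and 894. Of the 4 Eya genes, which encode phosphatases of the H2ax histone, Eya2 held 20 and 38 counts and was called in the Ythdc1flox/flox library alone. The other 3 had log2 ratios between 0.08 and 0.25.

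Repair genes were also split by the other GO terms they carry. The 43 members with the term cell cycle had a median log2 ratio of -0.11, with 30 below 0, and the 446 other promoter genes with that term had -0.05, with 271 below 0. The counting interval lay wholly below 1 for 5 of the 43 (11.6%) and wholly above 1 for 1, against 16.9% and 14.1% of all promoter genes. The 40 members with the term DNA replication had a median of -0.09, and the 63 others -0.07. The 193 members with neither term had a median of -0.07, with 118 (61.1%) below 0, against 53.2% of all promoter genes. Of the 493 other promoter genes with either term, 60.0% lay below 0. Genes active in dividing cells need not carry these terms, and their part in the lean was not tested. The 12 members annotated to the meiotic cell cycle had a median of -0.18, with 10 below 0. For the 46 other promoter genes with that term the median was -0.07, with 28 below 0.

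Many well known repair genes are not represented by a peak of their own. Of the 231 genes in the repair lists, 157 were members, 40 had a promoter peak without the term, and 34 had no promoter peak under their name. For 27 of the 34 the start lay inside a peak assigned to a neighbour, and 16 of these 27 peaks had a ratio below 0. The start of Brca1 lay in a peak assigned to Nbr1, with 571 counts in the Ythdc1 CKO library and 570 in the Ythdc1flox/flox library. Atm, the kinase that signals breaks, shared the Npat peak, with 550 and 540. Fancd2, the central substrate of the Fanconi pathway, had no such peak. Among shared peaks chosen after their values were seen, that of Rad54l and Pomgnt1 held 100 and 169, that of Tdp1 and Efcab11 held 203 and 316, and that of Pms1 and Ormdl1 held 215 and 311.

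Shared starts were common among members as well. A protein-coding gene started on the opposite strand inside the peak of 36 of 265 repair genes (13.6%), against 5.39% of other promoter genes and 7.63% of them at the same signal. Repair genes with such a partner had a median log2 ratio of -0.05, and those without one -0.08. Counts in these peaks cannot be divided between the 2 genes.

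Outside promoters, 107 of the 270 genes had 235 further peaks, or 0.870 per gene against 1.38 for other promoter genes. Of the 235 peaks, 32 were at least 2-fold lower and 12 at least 2-fold higher, 18.7% in all against 17.5% of the peaks of other promoter genes. Those other genes had 20137 such peaks, of which 2043 were at least 2-fold lower and 1489 at least 2-fold higher. Over the whole genome 48842 peaks were called in the Ythdc1flox/flox library and 41191 in the Ythdc1 CKO library. Of the 44 peaks of repair genes past 2-fold, 30 were called in the Ythdc1flox/flox library alone and 12 in the Ythdc1 CKO library alone. A peak called in 1 library has been picked for its signal there. The 2 called in both were in introns of Nsmce4a, a subunit of the Smc5 and Smc6 complex. One (chr7:130552741-130553195) held 73 counts in the Ythdc1 CKO library and 158 in the Ythdc1flox/flox library, and the other (chr7:130568911-130569470) held 89 and 189. The Nsmce4a promoter held 286 and 303, a ratio of 0.986.

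**Figure D5:**
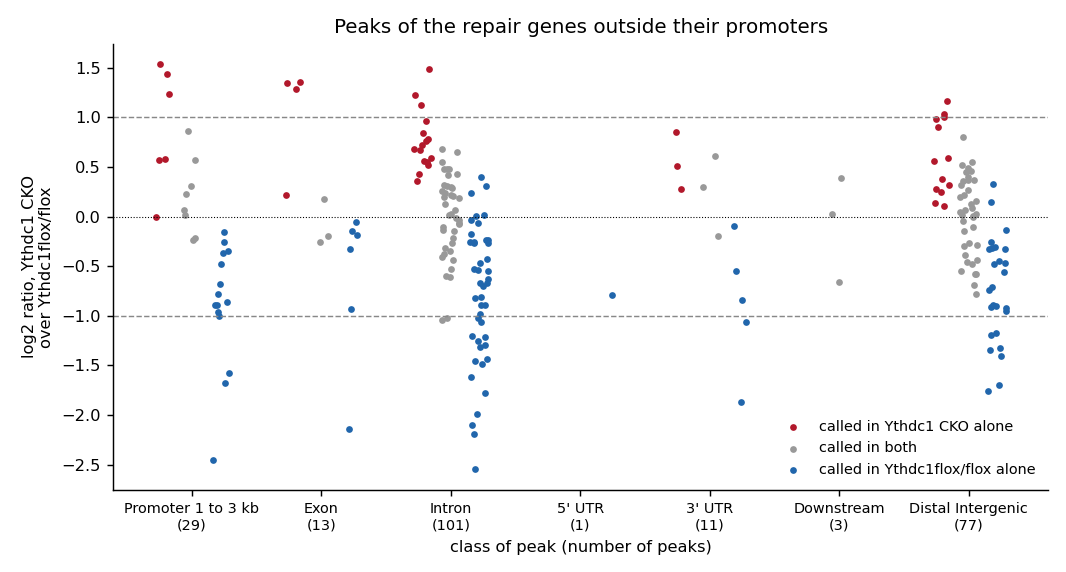
Log2 ratio of Ythdc1 CKO over Ythdc1flox/flox for the 235 peaks of DNA repair genes outside their promoters, by class of peak and coloured by the library in which the peak was called; dashed lines mark 2-fold. Apart from 2 intronic peaks of Nsmce4a, all peaks past 2-fold were called in 1 library alone. Most peaks called in 1 library alone do not pass 2-fold: 30 of 97 do for Ythdc1flox/flox and 12 of 42 for Ythdc1 CKO.

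The edge of the promoter window mattered for single genes. The members farthest from a start were Pif1 at 651 bp, with 66 counts in the Ythdc1 CKO library and 78 in the Ythdc1flox/flox library, and Sfpq at 622 bp, with 229 and 216. The nearest peaks beyond it belonged to Topbp1 at -1023 bp, with 15 and 29 counts, and Rnf8 at -1033 bp, with 9 and 54. The largest Nthl1 peak within 3 kb of the start lay 2343 bp downstream of it (chr17:24635025-24635421) and held 229 and 88 counts, a ratio of 2.72 (2.12 to 3.52). It was called in the Ythdc1 CKO library alone, so that calling favoured a high count there.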

How the data were processed

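The authors' deposited table of peaks merged over both libraries gives whole-number counts per peak, RPM values, a fold enrichment (a ratio) and a log2 fold change, per the file headers. BWA, MACS2 and GRCm38.p6 are named, per the submitters' processing notes; the sources used here do not give read filters, the Tn5 shift or what was counted. Ratios were recomputed from the deposited counts, 1 library per genotype, over 58076 peaks with medians of 60 (Ythdc1 CKO) and 65 (Ythdc1flox/flox) counts, with exact Clopper-Pearson 95% intervals. Reads are not independent molecules, so these cover counting error only, and no p-value was computed. The table's identifiers took RefSeq symbols by position: an overlap of spans over their union reaching 0.5 and exceeding the next candidate 2 times, or both ends within 1000 bp. Remaining identifiers with GO terms took the only coding gene with a start within 500 bp. Where no start was that near, they took the only coding gene that held at least 95% of their span. Of identifiers with GO terms 98.2% were named, and all 270 members. Members, lists and rules were chosen with earlier results of these data known. The genes named were those at least 2-fold different, the 5 highest and 5 lowest among members at or above the median summed count of 538.5 (called strongly covered), the 3 strongest, in each repair list the 2 farthest from 0 at or above that count, and a set picked by role, some of which are not reported here; other genes were picked with their values in view or are examples of a list, motif or shared peak. Intervals and the signal weighting were tested on simulated data. Alternatives were the authors' RPM, TMM (edgeR 4.0.16), other zero points, pseudocounts, filters and definitions of promoter and member. Python 3.11.15, pandas 2.3.3, scipy 1.17.1, statsmodels 0.14.6 and R 4.3.3 were used.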

Additional observations from a re-analysis of the deposited data

How the results depend on the processing

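The difference of -0.06 from other promoter genes of the same signal ranged from -0.07 to -0.05 over 11 alternatives, among them other scalings, a pseudocount of 5, a floor of 100 counts, promoters within 3 kb, summed promoter peaks, peaks called in both libraries, any repair term (355 genes) and members without the term cell cycle (227 genes). The median itself moved with the scaling, to -0.25 on the authors' RPM scale, where 37 promoters lay above 0, and to -0.023 with TMM, and it stayed between -0.08 and -0.05 in the other 9. The count of 0 promoters at least 2-fold lower became 2 on the RPM scale (Eya2 and Msh4) and 1 with any repair term (Foxm1). The count of 0 at least 2-fold higher became 1 with promoters within 3 kb (Nthl1, at another peak) and 1 with any repair term (Hmga1b). At 1.5-fold, 7 were lower and 1 higher, against 2.73% and 2.39% of the other promoter genes weighted to the same signal (7.36% and 6.20% unweighted). The lower ones included Eya2, Msh4 and Usp51, whose peaks were called in the Ythdc1flox/flox library alone. Among the 12 repair lists, nucleotide excision reversed to -0.14 on the RPM scale, where all lists were lower by the shift of about -0.17 in all promoter genes. No paired analysis was possible because each genotype has 1 library and the labels give no replicate numbers. With 1 library a group, no difference here can be separated from variation between animals, dissections or preparations.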

Other observations

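Of the 280 genes with the term DNA repair at any peak, 10 had no promoter peak assigned to them and so are not among the 270. The starts of Tdp1, Babam2, Rad9b and Shld2 lay inside promoter peaks assigned to neighbours. Fto, an RNA and DNA demethylase, had 6 intronic peaks, of which 5 had log2 ratios between -1.22 and -0.26 and 1 had 1.53. Its lowest held 26 counts in the Ythdc1 CKO library and 64 in the Ythdc1flox/flox library. Babam2, of the Brca1-A complex, had 4 peaks, 3 above 0 and 1 below. Tex15, a gene of meiotic recombination, had a distal peak with 23 and 63 counts. The others were Tdp1, Mgme1, Chrna4, Rad9b, Shld2, Fbh1 and Nsmce2.

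Further promoter peaks of the repair genes, besides the strongest, numbered 41 in 34 genes. Their median log2 ratio was -0.15, with 29 below 0 and 12 above, and 3 were at least 2-fold different. Only 21 of the 41 were called in both libraries, and a call in 1 library alone favours a high count there. Weaker promoter peaks of other genes were not set beside them, so no lean is read from these counts. A second peak of Parp9 held 49 counts in the Ythdc1 CKO library and 104 in the Ythdc1flox/flox library, and was called in the Ythdc1flox/flox library alone. A second peak of Ercc1 held 145 and 75, a ratio of 2.02 (1.52 to 2.71), and was called in the Ythdc1 CKO library alone. These genes were chosen after their values were seen.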
